A study of Mus musculus with 8 samples.

Results

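The miR-181 family of microRNAs (miRNAs) was followed in cardiomyocytes of mouse hearts after long pressure overload. Its members were taken by name, as the arms of miR-181a to miR-181d listed for the family, a rule that uses names alone. All 8 listed members were among the 697 mature miRNAs counted in the files. One more row carried the miR-181 name, miR-181d-3p, which was not a listed member and was not tested. Small RNA was sequenced from cardiomyocytes isolated by heart perfusion from male mice operated on at 2 months of age and sampled 14 weeks after surgery, although one passage of the study's methods can be read as giving 14 weeks as their age. The 4 Sham libraries came from mice given the sham operation, and the 4 TAC libraries came from mice given transverse aortic constriction, a narrowing of the aorta that overloads the left ventricle and leads to heart failure. The labels and methods name no strain, transgene or treatment other than the operation under anaesthesia, and each library held RNA from a portion of the cardiomyocytes of one mouse. Both groups contain whole-cell RNA, so mitochondrial and cytosolic pools of a miRNA were not separated.

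As background, a miRNA hairpin is cut into a duplex whose 5p or 3p strand is loaded into Argonaute, where the seed near its 5′ end pairs with target mRNAs and lowers their stability or translation. In the miR-181 family the 5p strands are the usual guides and share a seed, while the 3p strands are mostly passengers. The family is best known for tuning signalling in developing lymphocytes and for acting in the vascular wall. In heart muscle, miR-181c has been described as moving into mitochondria, where it acts on the transcript of a mitochondrially encoded subunit of cytochrome c oxidase.

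The mature sequences are shown because they divide the family by seed. Capitals mark the seed, bases 2 to 8 from the 5′ end, and the sequences are those of RefSeq (GRCm38.p6), in which 8 of 8 members and 593 of the 697 miRNAs in the files had an entry. The 5p arms were as follows.
mmu-miR-181a-5p: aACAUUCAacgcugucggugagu
mmu-miR-181b-5p: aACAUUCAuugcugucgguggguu
mmu-miR-181c-5p: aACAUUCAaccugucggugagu
mmu-miR-181d-5p: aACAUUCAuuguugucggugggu
The 3p arms were as follows.
mmu-miR-181a-1-3p: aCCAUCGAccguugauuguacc
mmu-miR-181a-2-3p: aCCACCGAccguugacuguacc
mmu-miR-181c-3p: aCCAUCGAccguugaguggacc
mmu-miR-181b-1-3p: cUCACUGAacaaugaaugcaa

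The 8 members carried 4 seeds. The 4 guide strands had the seed ACAUUCA in common, and no other miRNA of the files with a RefSeq sequence held it. Beyond the seed, miR-181b-5p differed from miR-181a-5p by A9U, C10U and A21G, counted from 1 at the 5′ end with the base of miR-181a-5p first, and was 1 base longer at its 3′ end, and miR-181d-5p differed from miR-181a-5p by the same 3 substitutions and C12U. miR-181c-5p was 1 base shorter than miR-181a-5p and was 1 edit away from it, the closest pair of guides compared. Among the passengers, miR-181a-2-3p differed from miR-181a-1-3p by U5C, which lies in the seed, and by U16C. miR-181c-3p kept the seed of miR-181a-1-3p. Sequences this close can share tags, and how tags that matched several miRNAs were counted is not given in the sources used here.

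In the mouse genome (GRCm38, GENCODE vM21 annotation) the family lies in 3 clusters. On chromosome 1, Mir181a-1 (137966455 to 137966541, plus strand) and Mir181b-1 (137966639 to 137966718, plus strand) lie in an exon of the long noncoding RNA gene A430106G13Rik with 97 bases between them. On chromosome 2, Mir181a-2 (38852735 to 38852810, plus strand) and Mir181b-2 (38853830 to 38853918, plus strand) lie 1019 bases apart in an intron of Nr6a1, an orphan nuclear receptor gene on the opposite strand. On chromosome 8, Mir181c (84178873 to 84178961, minus strand) and Mir181d (84178716 to 84178787, minus strand) lie 85 bases apart in an intron of Nanos3, an RNA-binding protein gene of germ cells on the same strand. The mature miR-181a-5p and miR-181b-5p are each made from 2 loci, so their counts sum over the clusters on chromosomes 1 and 2. The 3p arms of miR-181a differ between those loci and are counted separately.

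The libraries held 4005668 to 5392576 miRNA counts in Sham and 5507169 to 7798943 in TAC, so the TAC libraries were all deeper. The cardiomyocyte label was checked with 5 marker miRNAs, which were all counted. Together they took 198133, 168395, 160712 and 181957 CPM, that is miRNA counts scaled to the same library total, in Sham 1 to 4 and 194455, 221469, 226220 and 245941 in TAC 1 to 4, and miR-1a-3p was the most abundant of them. TAC 4 stood apart in markers of epithelium and pancreas. The summed CPM of 6 epithelial markers was 1406 in TAC 4 against 223 to 328 in the other TAC libraries and 242 to 401 in Sham. That of 3 pancreas acinar markers was 88.9 in TAC 4 against 15.3 to 27.2 in the other TAC libraries and 14.1 to 33.0 in Sham. Values without TAC 4 are therefore given beside the main results.

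Seen as a share of all miRNA counts, the family was smaller in TAC. The members summed to 0.668%, 0.798%, 0.720% and 0.717% of the counts in Sham 1 to 4 and to 0.532%, 0.520%, 0.532% and 0.520% in TAC 1 to 4. All 4 TAC libraries lay below all 4 Sham libraries, and the means were 0.726% ± 0.0538 for Sham and 0.526% ± 0.00674 for TAC (SD, n = 4 each). Without TAC 4 the difference was −0.198 percentage points, against −0.200 with it. As a share of the cleaned tags of each library, which include small RNAs other than miRNAs, the means lay closer, at 0.293% ± 0.0281 for Sham and 0.268% ± 0.0292 for TAC (SD, n = 4 each).

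For 6 of the 7 tested members the direction of the change in level depended on the scale. The study scaled its miRNA data to miR-126a-3p, which is made mainly in endothelial cells, and miR-19b-3p of the miR-17 to miR-92 cluster, both of which it took as unaltered on the basis of QPCR, which was not analysed here. How its factors were computed is not given in its methods. Here the same miRNAs were used through 1 factor for the group: the library sizes of TAC were multiplied by 0.537, which raises every TAC value by 0.90 on the log2 scale over its CPM. On this reference scale the summed level of the family was 7260 ± 538 CPM for Sham and 9797 ± 126 for TAC (SD, n = 4 each), so the order of the groups was turned around. With reference scaling the median log2 fold change of all 223 tested miRNAs was 0.61, and that of the 7 tested members was 0.43. With library totals the medians were −0.29 and −0.47, and with TMM scaling, which assumes that most miRNAs do not differ, they were −0.08 and −0.26. On each of these scales the members' median lay below that of all tested miRNAs. Which scale fits these cells cannot be told from the counts alone.

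**Figure D1:**
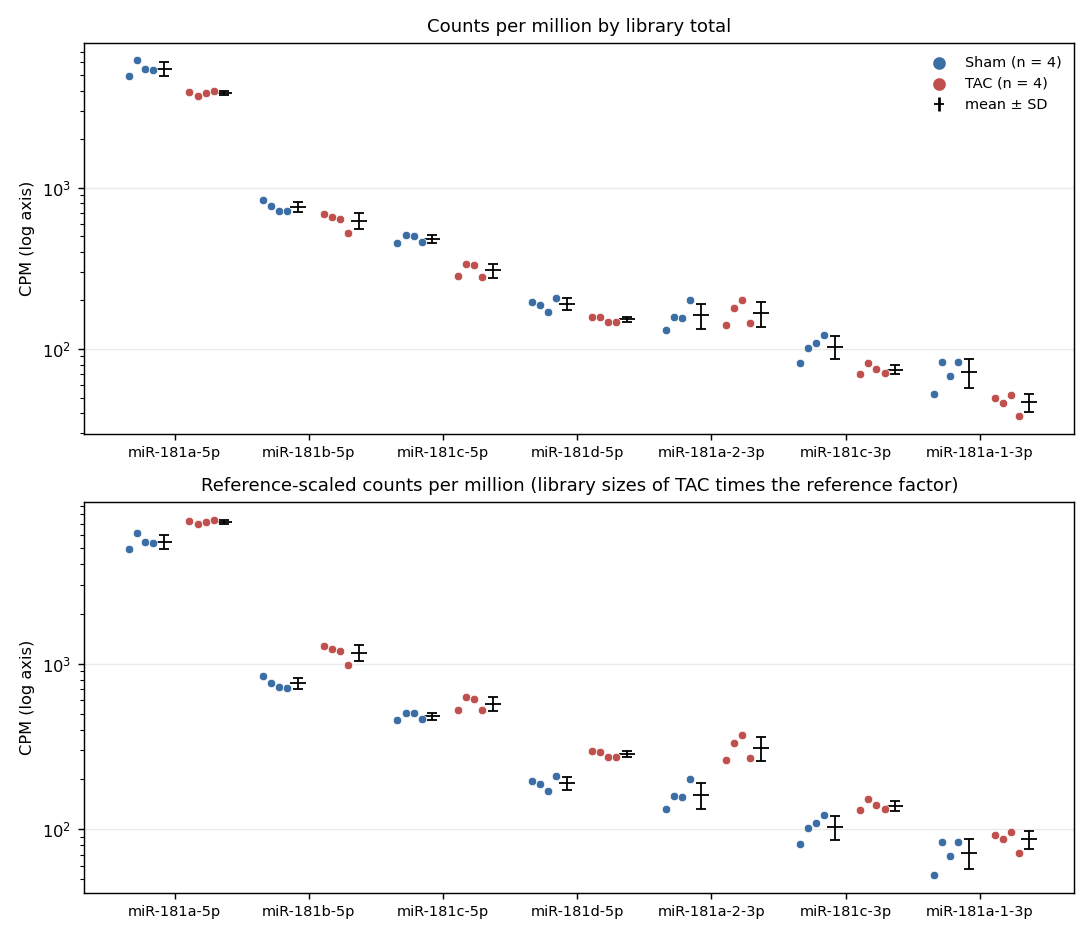
Level of the 7 tested miR-181 members in each library, as CPM by library total (upper panel) and as reference-scaled CPM (lower panel), both on a log axis. Points are libraries (4 Sham in blue, 4 TAC in red, in replicate order), and black marks are the mean ± SD of each group. The TAC points of 6 of the 7 members lie below the Sham points in the upper panel, and those of 6 of the 7 lie above them in the lower panel.

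In Sham the mean abundance of the guides was above that of the passengers. All members are 21 to 24 bases long, so the counts need no correction for length, although ligation and amplification can differ between miRNAs and were not measured. In Sham, miR-181a-5p stood at 5490 ± 518 CPM, miR-181b-5p at 761 ± 57.1, miR-181c-5p at 482 ± 25.1 and miR-181d-5p at 190 ± 16.5 (SD, n = 4 each). miR-181a-2-3p followed at 162 ± 28.6 CPM, miR-181c-3p at 103 ± 16.6 and miR-181a-1-3p at 71.9 ± 14.7 (SD, n = 4 each). In TAC the passenger miR-181a-2-3p averaged 166 CPM, above the guide miR-181d-5p at 152 CPM. The ranges of miR-181d-5p and miR-181a-2-3p overlapped in both groups, and within libraries miR-181d-5p had more counts in 4 of 4 Sham and 2 of 4 TAC libraries. The ranges of miR-181c-3p and miR-181a-1-3p overlapped in Sham but not in TAC, and within libraries miR-181c-3p had more counts in all 8. miR-181a-5p ranked at place 34 of the 223 tested miRNAs by count and miR-181a-1-3p at place 159. miR-181a-5p made up 75.5% ± 1.57 of the family's counts for Sham and 73.9% ± 2.13 for TAC (SD, n = 4 each), and the groups overlapped.

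mmu-miR-181a-5p, the main guide of the family, had 4921, 6176, 5478 and 5384 CPM in Sham 1 to 4 and 3931, 3739, 3872 and 3995 in TAC 1 to 4. On the reference scale the TAC values became 7323, 6965, 7212 and 7442. The groups did not overlap on either scale, with TAC below Sham by CPM and above it after reference scaling. The log2 fold change was 0.40 with reference scaling (SE 0.10, edgeR adjusted p = 0.00785) and −0.50 with library totals (SE 0.10, edgeR adjusted p = 0.00979). An exact permutation test over the 70 arrangements of the libraries, in which the reference factor was computed anew each time, gave p = 0.0286 for the reference-scaled values, the smallest it can give. Without Sham 3 the reference-scaled value was 0.31 and was no longer past the threshold (edgeR adjusted p = 0.0564), and with 1 reference factor per library it was 0.37 (edgeR adjusted p = 0.0762). Without TAC 4 it was 0.44 (edgeR adjusted p = 0.00897).

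mmu-miR-181b-5p, transcribed beside miR-181a at both loci, had 839, 768, 722 and 714 CPM in Sham 1 to 4 and 683, 660, 640 and 525 in TAC 1 to 4. Its TAC values were 1273, 1229, 1192 and 978 on the reference scale. TAC 4 was the lowest of its group on both scales, and again the groups did not overlap on either. The log2 fold change was 0.62 with reference scaling (SE 0.13, edgeR adjusted p = 0.00297, exact permutation p = 0.0571) and −0.28 with library totals (SE 0.13, edgeR adjusted p = 0.135). Among the 4 guides this was the value with reference scaling that lay nearest to the median of all tested miRNAs, 0.01 above it. Without TAC 4 it was 0.75 (edgeR adjusted p = 0.00116), and with 1 reference factor per library it was 0.57 and missed the threshold (edgeR adjusted p = 0.0588).

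mmu-miR-181c-5p, the member described in heart mitochondria, had 457, 506, 501 and 463 CPM in Sham 1 to 4 and 284, 337, 330 and 280 in TAC 1 to 4. On the reference scale its TAC values were 528, 629, 614 and 522. TAC 2 and TAC 3 were the higher libraries of their group, and the groups did not overlap on either scale. The log2 fold change was 0.25 with reference scaling, which did not pass the test (SE 0.12, edgeR adjusted p = 0.0991, exact permutation p = 0.257), and −0.65 with library totals, which did (SE 0.12, edgeR adjusted p = 0.00649). It was the lowest of the 7 tested members on both scales, 0.36 below the median of all tested miRNAs. With TMM it was the member past the threshold, at −0.44 (edgeR adjusted p = 0.0498). With reference scaling it passed the threshold without TAC 4, at 0.35 (edgeR adjusted p = 0.0435), and without Sham 1 (edgeR adjusted p = 0.0358).

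mmu-miR-181d-5p, the partner of miR-181c on chromosome 8, had 196, 187, 169 and 208 CPM in Sham 1 to 4 and 159, 157, 147 and 147 in TAC 1 to 4. Its reference-scaled TAC values were 296, 293, 274 and 273, a narrow range above every Sham library, while its CPM lay below every Sham library. The log2 fold change was 0.58 with reference scaling (SE 0.13, edgeR adjusted p = 0.00327, exact permutation p = 0.0571) and −0.32 with library totals (SE 0.12, edgeR adjusted p = 0.0924). Without TAC 4 the reference-scaled value was 0.65 (edgeR adjusted p = 0.00271), and with 1 reference factor per library it was 0.53 and missed the threshold (edgeR adjusted p = 0.0767).

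The clusters were compared within each library, where no scaling enters. The counts of miR-181c-5p and miR-181d-5p together were 11.3%, 9.98%, 10.8% and 11.0% of those of miR-181a-5p and miR-181b-5p in Sham 1 to 4, and 9.59%, 11.2%, 10.6% and 9.45% in TAC 1 to 4. The groups overlapped, with means of 10.8% ± 0.579 and 10.2% ± 0.852 (SD, n = 4 each). The ratio differed by −0.08 on the log2 scale (exact permutation p = 0.257, adjusted p = 0.3 over 7 ratios, 95% interval −0.26 to 0.17), which corresponds to TAC at 0.833 to 1.13 times the Sham ratio. A change of the miR-181c/d cluster relative to the miR-181a/b clusters was therefore not detected, and the test does not exclude one of a size inside that interval. It was −0.04 without TAC 4, −0.05 without TAC 1 and −0.13 without TAC 2.

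Inside the clusters the members did not keep the same proportions in each library. miR-181d-5p counts were 42.8%, 36.9%, 33.8% and 44.9% of those of miR-181c-5p in Sham 1 to 4 and 56.0%, 46.6%, 44.7% and 52.4% in TAC 1 to 4, so 3 of the 4 TAC libraries lay above every Sham library. The log2 difference was 0.34 (exact permutation p = 0.0571, adjusted p = 0.2 over 7 ratios, 95% interval −0.008 to 0.728). miR-181b-5p counts averaged 13.98% ± 2.07 of those of miR-181a-5p for Sham and 16.2% ± 2.08 for TAC (SD, n = 4 each), with a log2 difference of 0.21 and overlapping groups (exact permutation p = 0.2, adjusted p = 0.28 over 7 ratios, 95% interval −0.37 to 0.50). Neither difference passed the test, and without TAC 4 both were 0.31.

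Of the 7 tested members, the passenger strand miR-181a-2-3p had the highest log2 fold change on each scale. It had 131, 158, 157 and 200.5 CPM in Sham 1 to 4 and 141, 179, 200.1 and 144 in TAC 1 to 4, a full overlap. On the reference scale its TAC values were 263, 333, 373 and 269, all above the Sham libraries. The log2 fold change was 0.94 with reference scaling (SE 0.18, edgeR adjusted p = 0.00187, exact permutation p = 0.0286), a fold of 1.91, and 0.04 with library totals (SE 0.18, edgeR adjusted p = 0.882). With TMM it was 0.24 (edgeR adjusted p = 0.415). It lay 0.33 above the median of all tested miRNAs with reference scaling and with library totals, at the 77.1 percentile of their reference-scaled fold changes. Without TAC 4 the reference-scaled value was 1.054 (edgeR adjusted p = 0.00145).

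miR-181a-1-3p, the passenger of the chromosome 1 locus, had 52.7, 83.6, 68.3 and 83.1 CPM in Sham 1 to 4 and 49.6, 46.5, 51.9 and 38.5 in TAC 1 to 4. TAC was below every Sham library by CPM, whereas on the reference scale its TAC values of 92.3, 86.7, 96.7 and 71.7 overlapped Sham. The log2 fold change was 0.27 with reference scaling (SE 0.19, edgeR adjusted p = 0.234) and −0.63 with library totals (SE 0.19, edgeR adjusted p = 0.0413). The reference-scaled value moved with single libraries, from 0.16 without Sham 3 to 0.41 without TAC 4 (edgeR adjusted p = 0.537 and 0.0837). miR-181c-3p, the passenger of miR-181c, had 81.5, 101, 108 and 121 CPM in Sham 1 to 4 and 70.3, 81.4, 75.2 and 71.3 in TAC 1 to 4, and 131, 152, 140.1 and 133 in TAC after reference scaling. Its log2 fold change was 0.43 with reference scaling (SE 0.16, edgeR adjusted p = 0.0348) and −0.47 with library totals (SE 0.16, edgeR adjusted p = 0.0578), and the exact permutation p of the reference-scaled values was 0.0857. The reference-scaled value was no longer past an adjusted p of 0.05 without Sham 2, Sham 3, TAC 2 or TAC 3, with the replicate number as a block, with 1 reference factor per library, with miR-126a-3p as the only reference and with lower count filters, and it was 0.51 without TAC 4 (edgeR adjusted p = 0.0243). miR-181b-1-3p was near the limit of detection, with 5, 2, 1 and 2 counts in Sham 1 to 4 and 3, 0, 3 and 1 in TAC 1 to 4. Its mean of 2.1 counts lay below the filter of 100 counts, so it was not tested, and no fold change is given for it. A count of 0 allows up to 3 counts.

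With reference scaling, 5 of the 7 tested members were higher in TAC at an adjusted p below 0.05, beside 63.7% of all 223 tested miRNAs, and none was lower, beside 0.897%. Only miR-181a-2-3p also passed the fold change of 1.7 used by the study, beside 36.8% of all tested miRNAs that did so in the higher direction. Single libraries moved these counts of members. The count at an adjusted p below 0.05 was 6 without TAC 4 and 3 without Sham 3, and that past the fold was 1 without TAC 4 and 2 without Sham 1. The shares of all tested miRNAs in these fits were not computed, so the movement cannot be read as particular to the members. With 1 reference factor per library miR-181a-2-3p alone passed either rule, beside 46.2% of all tested miRNAs higher at an adjusted p below 0.05 and 32.7% past the fold as well. With library totals 3 of the 7 were lower at an adjusted p below 0.05, beside 20.6% of all tested miRNAs, and none was higher, beside 1.35%. With TMM 1 of the 7 was lower, beside 8.52%, and none was higher, beside 4.93% (none at an unadjusted p below 0.05, and none by DESeq2 with its own size factors). No member passed the fold of 1.7 with TMM, beside 1.35% of all tested miRNAs higher and 4.48% lower, or with library totals, beside 0.448% higher and 10.3% lower. The groups did not overlap, with TAC above, in 6 of the 7 members after reference scaling, beside 54.7% of all tested miRNAs, and in none was TAC below, beside 0.448%. By CPM 6 of the 7 had TAC below Sham without overlap, beside 27.4%, and none had TAC above, beside 3.59%. Members of 1 cluster share a transcript, and near-identical arms may share tags, so the 7 are not independent of each other.

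**Figure D2:**
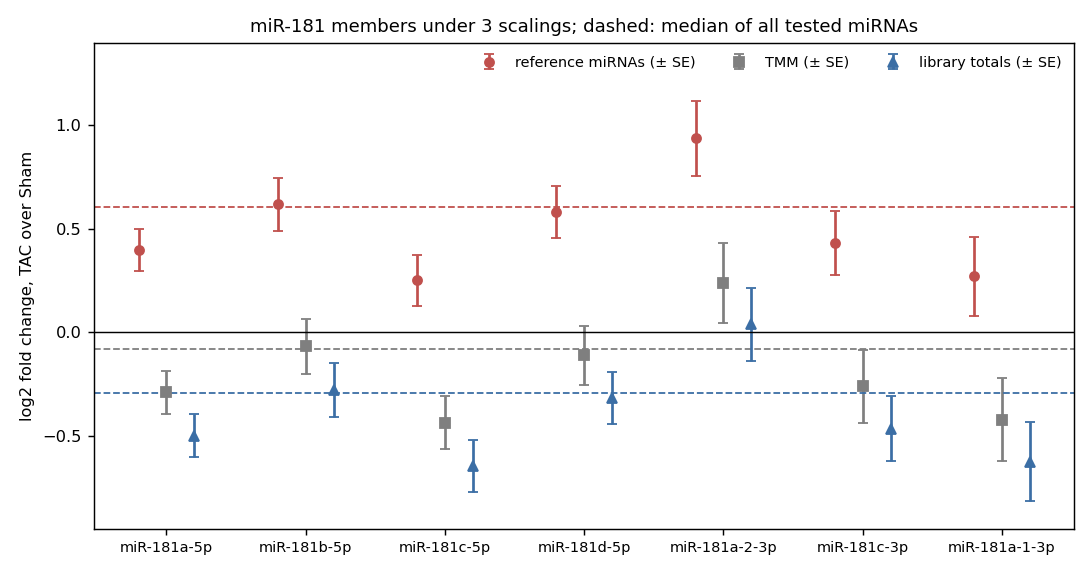
Log2 fold change of TAC over Sham for the 7 tested members with reference scaling (red circles), TMM (grey squares) and library totals (blue triangles), from edgeR with bars of ± 1 standard error and 4 libraries a group. Dashed lines mark the median of all 223 tested miRNAs on each scale, and miR-181a-2-3p is the member that lies clearly above that line, by 0.33 with reference scaling, whereas miR-181c-5p lies 0.36 below it.

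The passengers of both miR-181a loci were set against each other within the libraries. miR-181a-2-3p had 2.49, 1.89, 2.29 and 2.41 times the counts of miR-181a-1-3p in Sham 1 to 4 and 2.85, 3.84, 3.86 and 3.75 times in TAC 1 to 4. All 4 TAC libraries lay above all Sham libraries, and TAC 1 was the lowest of its group. The mean ratio was 2.27 ± 0.266 for Sham and 3.57 ± 0.487 for TAC (SD, n = 4 each), a difference of 0.65 on the log2 scale or a fold of 1.57 (95% interval 1.14 to 2.04). The exact permutation p was 0.0286, the smallest that 4 against 4 libraries can give, and its adjusted value over the 7 ratios was 0.2, so the difference did not pass the correction. With only 1 ratio at the smallest p, and the next possible exact p at 0.0571, the adjusted value could not have fallen below 0.05. Without TAC 4 the difference was 0.62, and without TAC 1 it was 0.76. With miR-181a-1-3p at 244 to 451 counts a library, counting error is part of the spread of this ratio.

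Set against the shared guide, the passengers had these values. miR-181a-2-3p was at 2.67%, 2.56%, 2.86% and 3.72% of the miR-181a-5p counts in Sham 1 to 4 and at 3.59%, 4.78%, 5.17% and 3.61% in TAC 1 to 4, and the groups overlapped through Sham 4. The log2 difference was 0.53 (exact permutation p = 0.0857, adjusted p = 0.2 over 7 ratios, 95% interval −0.05 to 1.01). miR-181a-1-3p was at 1.304% ± 0.198 of the miR-181a-5p counts for Sham and 1.20% ± 0.165 for TAC (SD, n = 4 each), a log2 difference of −0.12 (exact permutation p = 0.486, adjusted p = 0.486 over 7 ratios, 95% interval −0.68 to 0.32). This last value depended on single libraries, at −0.01 without TAC 4, −0.03 without Sham 4 and −0.21 without Sham 1, whereas that of miR-181a-2-3p was 0.61 without TAC 4. The guide is made from both loci, so these percentages are not the strand balance of either one.

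For miR-181c, which has 1 locus, the passenger was at 17.8%, 19.96%, 21.6% and 26.2% of the guide in Sham 1 to 4 and at 24.8%, 24.1%, 22.8% and 25.4% in TAC 1 to 4. TAC lay inside the wider range of Sham. The log2 difference was 0.20 (exact permutation p = 0.2, adjusted p = 0.28 over 7 ratios, 95% interval −0.20 to 0.51), and it was 0.17 without TAC 4, 0.30 without Sham 4 and 0.11 without Sham 1. This passenger was the most abundant relative to its guide among those tested in the family, with means of 21.4% ± 3.56 for Sham and 24.3% ± 1.12 for TAC (SD, n = 4 each).

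**Figure D3:**
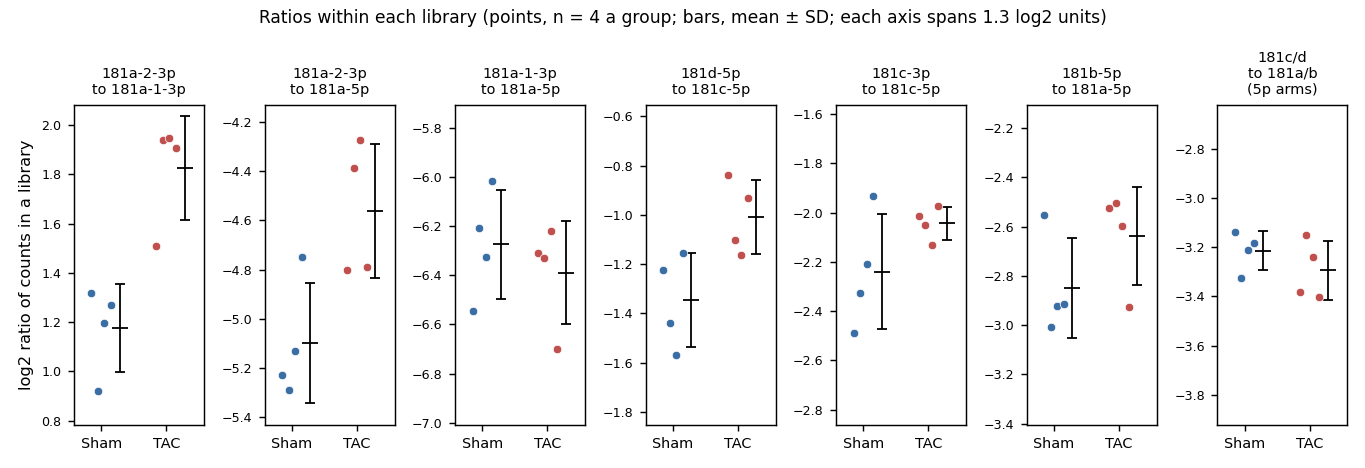
Log2 ratios of counts within each library for 7 pairs of members or clusters, with 1 panel a pair and every axis spanning the same range. Points are libraries (4 Sham in blue, 4 TAC in red) and bars are the mean ± SD. The groups are separate in the panel of miR-181a-2-3p to miR-181a-1-3p, where the means differ by 0.65, and overlap in the panel of the miR-181c/d to the miR-181a/b guides, where they differ by −0.08.

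The same 3p-to-5p ratio was computed in 42 other miRNAs whose 2 arms were both tested under names that differ only in 5p and 3p. Those with a locus number in an arm name, as miR-181a has, were not among the 42. The ranks and range below therefore leave out such miRNAs, even where both of their arms were tested. Their log2 change from Sham to TAC had a median of 0.09 and ran from −0.43 to 0.94. The change of miR-181a-2-3p over miR-181a-5p was larger than that of 36 of them and smaller than that of 6. The change of miR-181c was larger than that of 26, and that of miR-181a-1-3p over miR-181a-5p was larger than that of 11. In 4 of the 42, or 9.52%, the TAC libraries lay above the Sham libraries without overlap, and in none did they lie below. In some of the 42 the 3p strand is the more abundant one, so passenger-to-guide and guide-to-passenger ratios are mixed in these ranks. The 3p row behind the value of 0.94 had nearly the same counts as that of another miRNA, so it may share tags.

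**Figure D4:**
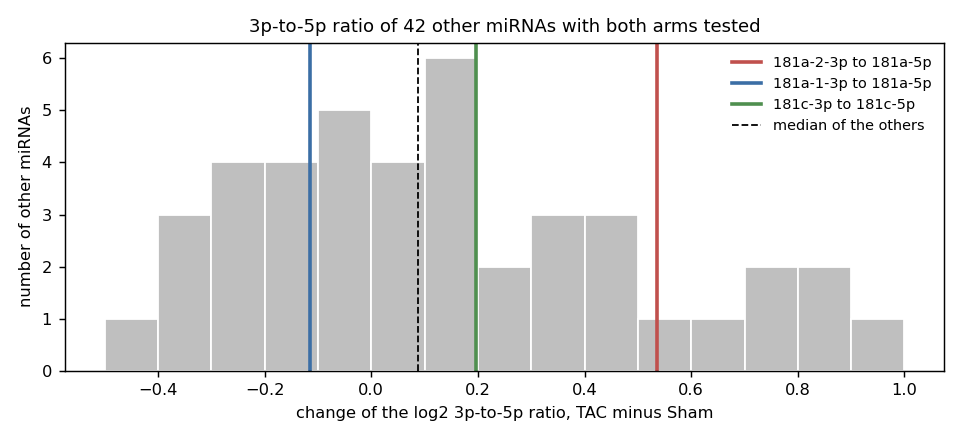
Histogram of the change from Sham to TAC in the log2 3p-to-5p count ratio of 42 other miRNAs, with the number of miRNAs on the vertical axis. Coloured lines mark the passengers of miR-181a-2 (0.53), miR-181a-1 (−0.12) and miR-181c (0.20), and the dashed line is the median of the other miRNAs (0.09).

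The miRNAs whose counts followed a member most closely were found as those with the smallest standard deviation of the log2 ratio to it over the 8 libraries, among 216 tested miRNAs outside the family. This is a description, since all miRNAs of a library share its depth and preparation. Closest to miR-181a-5p were miR-92a-3p (SD of the log2 ratio 0.12), miR-125a-5p (0.13), miR-23a-3p (0.13), miR-425-5p (0.14) and miR-32-5p (0.14), against a median of 0.35 over the 216. Closest to miR-181c-5p were miR-32-5p (0.11), miR-194-5p (0.13), miR-15a-5p (0.14), miR-30b-5p (0.15) and miR-322-5p (0.17), against a median of 0.41. miR-181a-5p and miR-181c-5p followed each other with an SD of 0.15. Closest to miR-181a-2-3p were miR-30a-3p (0.13), let-7d-3p (0.16), miR-208a-5p (0.20), miR-499-5p (0.21) and miR-145a-3p (0.22), against a median of 0.44, whereas its SD against its own guide miR-181a-5p was 0.37. Of these 5, miR-208a-5p and miR-499-5p are products of myosin genes of heart muscle. The 5p arm of the same hairpin as miR-145a-3p is in the fibroblast and smooth muscle marker list. With reference scaling the log2 fold changes of the 5 were 0.74 to 1.02, beside 0.94 for miR-181a-2-3p. A link of miR-181a-2-3p to a cell type was not tested.

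Beside miR-181c, 5 miRNAs that have been described in mitochondria of muscle or heart cells were read out. With reference scaling 4 of the 5 were higher at an adjusted p below 0.05, beside 63.7% of all tested miRNAs, and 3 of them passed the fold of 1.7, beside 36.8%. With TMM 1 was higher at an adjusted p below 0.05, beside 4.93% of all tested miRNAs, and none passed the fold, beside 1.35%. With reference scaling their median log2 fold change was 0.79 beside 0.61 over all tested miRNAs. The 3 past the fold were miR-1a-3p, the main miRNA of striated muscle, at 1.44 (SE 0.15, edgeR adjusted p = 8.2e-05), let-7b-5p at 1.02 (SE 0.12, edgeR adjusted p = 0.000163) and miR-378a-3p, from an intron of a gene of mitochondrial metabolism, at 0.79 (SE 0.16, edgeR adjusted p = 0.00221). miR-92a-3p was at 0.33 (SE 0.12, edgeR adjusted p = 0.0376) and miR-21a-5p at 0.60 (SE 0.27, edgeR adjusted p = 0.0723). With library totals their values were 0.54, 0.12, −0.11, −0.57 and −0.30 in the order named. miR-181c-5p, at 0.25 and −0.65 on the same scales, was below all 5 in log2 fold change, a difference that was not tested.

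Markers of other cell types were also read out. The 2 endothelial markers, miR-126a-3p and miR-126a-5p, summed to 49248, 65606, 72051 and 53295 CPM in Sham 1 to 4 and to 33812, 33782, 34557 and 29274 in TAC 1 to 4, so all TAC libraries lay below Sham. By CPM the same held for 6 of the 7 members, beside 27.4% of all 223 tested miRNAs. The most abundant of them, miR-126a-3p, fell from 39017 to 22483 CPM on average, and it is also one of the miRNAs that set the reference scale. The 5 leukocyte markers summed to 1920 ± 480 CPM in Sham and 1226 ± 173 in TAC, led by miR-150-5p, and the 3 erythroid markers to 962 ± 444 and 330 ± 249, led by miR-144-3p (SD, n = 4 each), with overlapping groups in both lists. TAC 1 stood apart in the erythroid sum, at 43.8 CPM against 200 to 550 in the other TAC libraries and 418 to 1503 in Sham. The 5 fibroblast and smooth muscle markers, led by miR-143-3p, summed to 45727 ± 3244 and 41029 ± 3062 CPM (SD, n = 4 each), also with overlap. No marker of any list was at 0 in every library. miR-181 members are made in several of these cell types, and in bulk RNA fewer cells of a type cannot be told apart from less RNA per cell. The part of these cells in the values of the miR-181 members was not tested.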

How the data were processed

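The authors sequenced small RNA of isolated cardiomyocytes and deposited 1 table per library of whole-number counts per mature miRNA, without normalization. The handling of tags that match several miRNAs is not given in the sources used here, and the submitters' processing notes name mm10 and StringTie 1.3.1 without a role. Groups came from the sample labels, and no library was a copy of another. Testing covered 223 miRNAs, those averaging more than 100 counts across all 8 libraries, and used edgeR 4.0.16 in R 4.3.3 (quasi-likelihood test, group as the only term, Benjamini-Hochberg adjustment over the 223). Library size was the miRNA total, in TAC multiplied by 0.537, a factor averaged geometrically from miR-126a-3p and miR-19b-3p (mean CPM in TAC over that in Sham). The edgeR fit takes this factor as known, whereas the exact permutation of reference-scaled values computes it anew in each arrangement. A call needed an adjusted p below 0.05 and a fold above 1.7. Standard errors were obtained by dividing each log2 fold change by the square root of its F. At a mean of 100 counts counting error is smaller than the biological coefficient of variation of 0.255, and p-values measure the spread between single mice.

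Ratios within a library were compared by two-sided exact permutation over 70 arrangements (smallest p 0.0286), with intervals from inverting that test and adjustment over 7 ratios. Alternatives were TMM, library totals, clean tags, 1 reference factor per library, either reference miRNA alone, DESeq2 1.42.0, other count filters and fold thresholds, the replicate number as a block, and each library left out. The members were picked by name, but the family, the marker lists and the alternatives were chosen with earlier results of these data known. The miRNAs named are the members, both references, the 5 closest miRNAs to each of 3 members, the mitochondrial list and the most abundant miRNA of each marker list. Epithelial and acinar markers were led by miR-200a-3p and miR-216a-5p. Sequences are from RefSeq (GRCm38.p6), and positions from GENCODE vM21. Remaining values and plots were made with matplotlib 3.10.9, scipy 1.17.1, pandas 2.3.3 and numpy 2.4.6 under Python 3.11.15.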

Additional observations from a re-analysis of the deposited data

Results flagged for a closer look

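Of 32 groups of 4 libraries checked for a library far from the others, 1 stood out. The log2 ratio of miR-181a-2-3p to miR-181a-1-3p was 1.51 in TAC 1 against 1.91 to 1.95 in TAC 2 to 4, and the gap took 0.909 of the whole range of the group, past Dixon's 95% critical value for 4 libraries. TAC 1 lay on the side of the Sham libraries, whose values were 0.92 to 1.32, and the TAC minus Sham difference was 0.76 without it and 0.65 with it. Chance alone flags a small share of such groups, about 5%, so 1 in 32 is no more than that.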

How the results depend on the processing

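The direction of the members' log2 fold changes depended on the scale. With TMM, library totals, clean tags and DESeq2's own size factors they were, in this order, −0.29, −0.50, −0.16 and −0.24 for miR-181a-5p (reference scaling 0.40), −0.44, −0.65, −0.30 and −0.39 for miR-181c-5p (0.25), −0.42, −0.63, −0.30 and −0.37 for miR-181a-1-3p (0.27), and −0.26, −0.47, −0.13 and −0.21 for miR-181c-3p (0.43). With TMM, library totals and DESeq2's own size factors they were −0.067, −0.28 and −0.027 for miR-181b-5p (0.62) and −0.11, −0.32 and −0.066 for miR-181d-5p (0.58). With clean tags these members did not turn, at 0.059 for miR-181b-5p and 0.018 for miR-181d-5p (edgeR adjusted p = 0.815 and 0.936). miR-181a-2-3p stayed above 0 under every alternative and lost significance under these 4 scalings. The number of members called higher, 1 with reference scaling, was 0 under these 4 scalings and above a fold of 2, 2 above a fold of 1.5, 5 with no fold required, and 1 to 2 when each library was left out (2 without Sham 1). The number higher at an adjusted p below 0.05, 5 with reference scaling, was 0 under these 4 scalings, 1 with 1 reference factor per library, and 3 to 6 when each library was left out (3 without Sham 3). The number lower, 0 with reference scaling, was 1 with TMM, 3 with library totals and 1 with DESeq2's own size factors. Over all 223 tested miRNAs, 18 were higher and 12 lower at an adjusted p below 0.05 with clean tags, and 19 and 22 with DESeq2's own size factors. Shares of all tested miRNAs were not computed for folds of 1.5 and 2 or for fits with a library left out. The counts of members there stand without a general share, so they are not a result about the members. The family share difference of −0.200 percentage points was −0.0241 as a share of clean tags, and −0.219 to −0.176 when each library was left out. None of the 7 ratios within a library changed direction under the alternatives run: that of the miR-181c/d to the miR-181a/b guides was −0.13 to −0.04 and that of miR-181a-2-3p to miR-181a-1-3p was 0.56 to 0.76 when each library was left out, where 3 against 4 libraries cannot give an exact permutation p below 0.0571. The deviations of same-numbered libraries from their group means had correlations of 0.168, −0.370, 0.315 and −0.217, so the numbers were not used as pairs; the study speaks of pairs of mice without saying how they were matched. With the replicate number as a block, no member changed its side of the threshold but miR-181c-3p, which lost significance (0.44, edgeR adjusted p = 0.0586), and did so also without Sham 2, Sham 3, TAC 2 or TAC 3, with miR-126a-3p as the only reference (0.0989), with no count filter (0.113), with a mean above 10 counts (0.0591) and with 1 reference factor per library (0.125). miR-181c-5p passed the threshold without Sham 1 (edgeR adjusted p = 0.0358), without TAC 4 (0.0435) and with miR-19b-3p as the only reference (0.0271). The causes of these dependences were not tested, and depth limits what can be said of miR-181b-1-3p.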

Other observations

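miR-181d-3p, the passenger strand of miR-181d and the row of the miR-181 name that was not a listed member, had 0, 4, 1 and 0 counts in Sham 1 to 4 and 17, 6, 3 and 6 in TAC 1 to 4. The values are near the limit of detection, the TAC libraries were deeper, and no comparison was made.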
